A study of Mus musculus with 6 samples.

Results

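The genes described here encode the subunits of the proteasome, the barrel-shaped protease that degrades ubiquitin-tagged proteins and supplies most of the peptides shown on MHC class I molecules. Members were all genes whose mouse symbol is Psma, Psmb, Psmc, Psmd or Psme followed by a number, which gave 43 of the 57010 genes in the deposited table: 8 Psma, 11 Psmb, 6 Psmc, 14 Psmd and 4 Psme genes. Within them, 5 genes that interferon gamma induces (Psmb8, Psmb9, Psmb10, Psme1 and Psme2) were set against the 3 constitutive catalytic genes Psmb5, Psmb6 and Psmb7. RNA had been sequenced from sorted heart cells of mice with the genotype given as Ova DTG, whose hearts express ovalbumin. All had been given OTI cells, CD8 T cells that recognise ovalbumin. The sort kept cells positive for CD45, the antigen of all leukocytes, and negative for CD90.2 (Thy1), an antigen of T cells. The 3 ICI libraries came from mice given immune checkpoint inhibitors, anti-CTLA-4 and anti-PD-1 at 200 µg each. The 3 isotype libraries came from mice given control antibody, and the direction of every difference rests on these labels. The libraries labelled isotype, and not those labelled ICI, were the ones with more classical monocyte transcripts and more of these 5 interferon-inducible members (values below). Both groups thus carry the transgene and received OTI cells, and the titles of both name myocarditis. The labels do not name the strain, age and sex of the mice, the promoter of the transgene or any pooling of animals, so the p-values measure the spread between libraries called biological replicates.

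In the barrel, called 20S, outer rings of alpha subunits (Psma genes) gate the entry and inner rings of beta subunits (Psmb genes) hold the protease sites. The 19S cap, made of ATPases (Psmc genes) and other subunits (Psmd genes), binds, unfolds and feeds in ubiquitinated proteins, and the Psme genes encode cap-like activators that do not need ubiquitin. In cells exposed to interferon gamma, newly built barrels take up Psmb9, Psmb10 and Psmb8 in place of the catalytic subunits Psmb6, Psmb7 and Psmb5; this immunoproteasome is the usual form in many leukocytes and favours peptides that suit MHC class I.

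Total counts ran from 21528274 to 23713009 in ICI libraries and from 24657436 to 30736316 in isotype libraries. Sorted identity was checked on markers. Ptprc, which encodes CD45, averaged 1300 and 1012 CPM (the count scaled to an equal library total) in ICI and isotype libraries. It was not called. The other leukocyte genes went opposite ways: Itgam was called lower (613 against 1078 CPM) and Csf1r higher (4157 against 1906 CPM). The 8 T cell genes together summed to 11.3 to 21.9 CPM against 1.58 to 3.81 CPM. Of the 4 that were tested, Cd4 and Cd3g were called higher, Trac lower (mean 0.282 against 0.570 CPM) and Cd3e was not called. Cd4, which macrophages can also express, made up most of the sum in ICI libraries, and Thy1, which encodes the antigen sorted against, was below 0.1 CPM in all 6. The make-up of the groups differed: all 8 genes of heart-resident macrophages were called higher in ICI libraries (summed 2812 to 3240 CPM against 15.3 to 25.6 CPM), as were all 5 B cell genes (196 to 671 CPM against 3.89 to 8.72 CPM), and 4 of 5 classical monocyte genes were called lower (780 to 1041 CPM against 4073 to 8558 CPM). Genes of dividing cells were lower in 4 of 5 cases (summed 174 to 244 CPM against 263 to 349 CPM), with a median log2 fold change of -1.28. All 5 natural killer cell genes (71.4 to 111 CPM against 26.5 to 35.3 CPM), 4 of 5 dendritic cell genes (192 to 255 CPM against 27.1 to 50.6 CPM), and 4 of 5 genes each of fibroblasts and endothelium (62.2 to 139.99 CPM against 19.4 to 29.7 CPM), cardiomyocytes (26.3 to 33.4 CPM against 4.22 to 10.3 CPM) and erythroid cells (19.3 to 38.8 CPM against 0.325 to 2.56 CPM) were called higher. The remaining dendritic cell gene, Clec9a, was called lower (mean 7.66 CPM in ICI against 17.2 CPM in isotype libraries). Cd209a alone (mean 149 against 0.073 CPM) made up most of the dendritic cell sum in ICI libraries. Neutrophil genes were divided, with 2 higher and 1 lower of 5 (463 to 509 CPM against 355 to 433 CPM). These counts of called marker genes stand beside 35.0% of all tested genes called higher and 33.9% called lower. In bulk RNA, fewer cells of a type and less of an RNA per cell cannot be told apart, and the part of these cell differences in the results below was not tested. Libraries numbered 3 carried 2786 (ICI) and 1844 (isotype) Xist counts, against at most 12 in the other 4. They carried 6 (ICI) and 130 (isotype) counts of Y-linked genes, against 3620 to 5821 in the other 4. The inducible genes, the paired ratios and the inducible share are therefore also given without the libraries numbered 3.

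Promoter sequence was available from RefSeq (build GRCm38.p6) for 36 of the 43 genes, as 39 windows of 250 bases before a transcript start; Psmb7 was among those without an entry. The windows were searched on both strands for 3 motifs. Of the 6 catalytic genes, Psmb8 held TTCNNNGAA, the gamma-activated site of interferon-induced genes, 97 to 89 bases before the start, and Psmb5 and Psmb6 held TGACNNNGC, the core of the element through which NFE2L1 raises proteasome genes. The stretches below show these matches in capitals on the strand of the gene, with Psmb3, which had a match to GAAA, any 2 bases and GAAA, the core of the interferon-stimulated response element, on the opposite strand. They are shown because they hold the matches among the catalytic genes and in Psmb3, which had the lowest fold change among the other Psmb genes. Strands are as RefSeq gives them; the bases after the start were found in the sense strand of the gene's GENCODE transcript for 36 of the 39 windows, and that of Psmb8 was not among them. No match overlapped another.
Psmb8, chr17:34198088-34198116, plus strand: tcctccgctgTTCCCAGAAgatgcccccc
Psmb3, chr11:97703261-97703290, plus strand: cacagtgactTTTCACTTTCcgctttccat
Psmb5, chr14:54618024-54618052, minus strand: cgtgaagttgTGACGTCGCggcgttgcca
Psmb6, chr11:70525107-70525356, plus strand: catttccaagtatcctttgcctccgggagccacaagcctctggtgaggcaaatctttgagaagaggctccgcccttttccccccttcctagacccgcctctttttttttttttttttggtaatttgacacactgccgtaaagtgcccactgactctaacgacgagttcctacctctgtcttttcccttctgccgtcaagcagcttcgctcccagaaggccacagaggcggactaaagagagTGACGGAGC
TTCNNNGAA was found in 1 of the 36 genes, against 7.02% of 32851 windows of all genes. The interferon-stimulated response element core was found in 3 (Psmb3, Psmd4 and Psmd9), against 2.98%, and TGACNNNGC in 5 (Psmb5, Psmb6, Psmc6, Psmd9 and Psmd12), against 10.16%. No match to the 3 motifs was found in the windows of Psmb9, Psmb10, Psme1 and Psme2, which says only that those letters are not in those bases. All 250 bases of the Psmb8 window overlap Psmb8 exons in GENCODE M21, and all 250 of the Psmb9 window overlap exons of Psmb9 and Tap1.

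Nearly all proteasome genes were lower in ICI libraries. Of the 43 members, 42 passed the filter on low counts, and 41 of these were called lower and 0 higher by the quasi-likelihood F test of edgeR (Benjamini-Hochberg adjusted p under 0.05 over all 14575 genes tested). In the same test 68.9% of all genes were called, 33.9% lower and 35.0% higher. The median log2 fold change (ICI over isotype) was -1.29, a 2.45-fold lower level, where the median of all tested genes was 0.03. Fold changes include TMM normalization factors, which CPM values do not. These factors were 1.052 to 1.105 in ICI and 0.921 to 0.952 in isotype libraries, so fold changes lie below ratios of mean CPM. With library totals alone the median of all tested genes was 0.23. Values are given in the order of replicates 1, 2 and 3. For 39 of the 42 members every ICI library lay below every isotype library, which held for 28.2% of all tested genes; 73.5% were without overlap in either direction. Together the members took 0.391%, 0.443% and 0.363% of the counts in ICI replicates 1, 2 and 3, and 0.965%, 0.939% and 0.854% in isotype libraries. The groups did not overlap in this share, which averaged 0.399% ± 0.041 against 0.919% ± 0.058 (SD, n = 3 each).

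**Figure D1:**
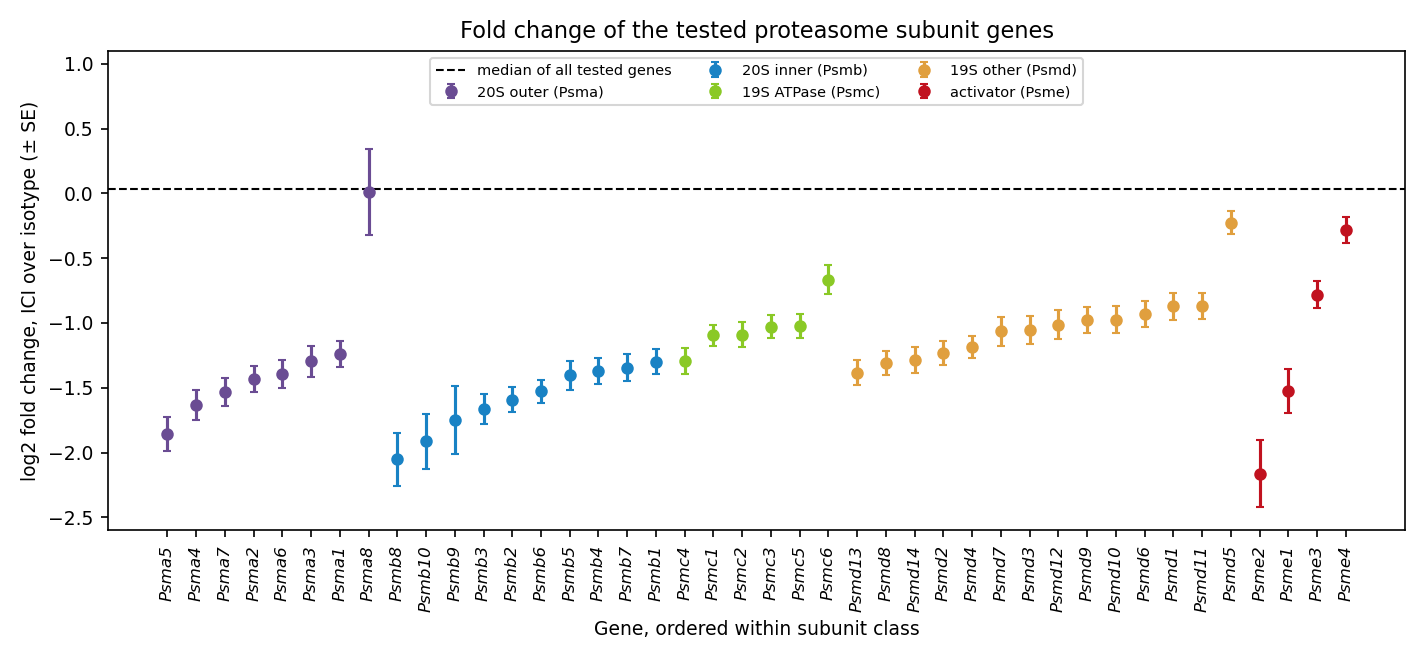
Log2 fold change (ICI over isotype, y axis) with its standard error for each of the 42 tested members (x axis), ordered within their subunit class by colour; the dashed line is the median of all 14575 tested genes, 0.03. All members but Psma8 lie below 0, and the lowest are Psme2 at -2.16 and Psmb8 at -2.05.

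All 3 inducible catalytic genes fell. Psmb8 (ENSMUSG00000024338), the inducible counterpart of Psmb5, was at 322, 425 and 244 CPM in ICI replicates 1, 2 and 3, against 1275, 1186 and 1119 CPM in isotype libraries. The groups lay far apart, and replicate 2 was the highest and replicate 3 the lowest of the ICI libraries. The log2 fold change was -2.05 (SE 0.21, edgeR adjusted p = 6.31e-05), 4.15-fold lower. Psmb10 (ENSMUSG00000031897), the counterpart of Psmb7, was at 97.4, 121 and 69.5 CPM against 337, 322 and 285 CPM, which edgeR put at -1.91 ± 0.21 SE on the log2 scale (adjusted p = 0.000152). Psmb9 (ENSMUSG00000096727), the counterpart of Psmb6, was at 117, 160 and 78.5 CPM against 367, 331 and 346 CPM, which edgeR put at -1.75 ± 0.26 SE on the log2 scale (adjusted p = 0.00121). In the libraries numbered 1 and 2 alone the log2 fold changes were -1.92 (Psmb8), -1.80 (Psmb10) and -1.53 (Psmb9). Both Psmb9 and Psmb10 showed the same order of ICI libraries as Psmb8, with no overlap between the groups. Psmb9 and Tap1 lie head to head and share 212 exon bases (5.8% of those of Psmb9) on opposite strands, so in these non-directional libraries some of their reads cannot be told apart.

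Psme1 and Psme2 encode the alpha and beta chains of PA28, the interferon-inducible activator that opens the barrel gate. Psme2 (ENSMUSG00000079197) had the lowest fold change of all members, though not with the length trend removed (-1.71, against -1.86 for Psmb8). It was at 116, 154 and 78.8 CPM in ICI libraries against 495, 454 and 413 CPM in isotype libraries (edgeR log2 fold change -2.16 ± 0.26 SE, adjusted p = 0.000339). Psme1 (ENSMUSG00000022216) was at 146, 190 and 117 CPM against 391, 360 and 386 CPM (edgeR log2 fold change -1.52 ± 0.17 SE, adjusted p = 9.26e-05). In the libraries numbered 1 and 2 alone the log2 fold changes were -2.01 (Psme2) and -1.36 (Psme1). Although their products form 1 ring, the genes did not fall equally: the ratio of Psme1 to Psme2 counts per kilobase of transcript was 1.09, 1.07 and 1.29 in ICI libraries and 0.683, 0.686 and 0.809 in isotype libraries. Psme2b, a gene very similar to Psme2 and no member, held 374 to 677 counts in ICI libraries and 976 to 1134 in isotype libraries, so reads of Psme2 may have been divided between them. Psme3, which encodes the nuclear activator PA28 gamma, fell to 116 ± 8.78 CPM in ICI libraries against 173 ± 17.1 CPM in isotype libraries (SD, n = 3 each; edgeR log2 fold change -0.78 ± 0.10 SE, adjusted p = 7.91e-05).

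**Figure D2:**
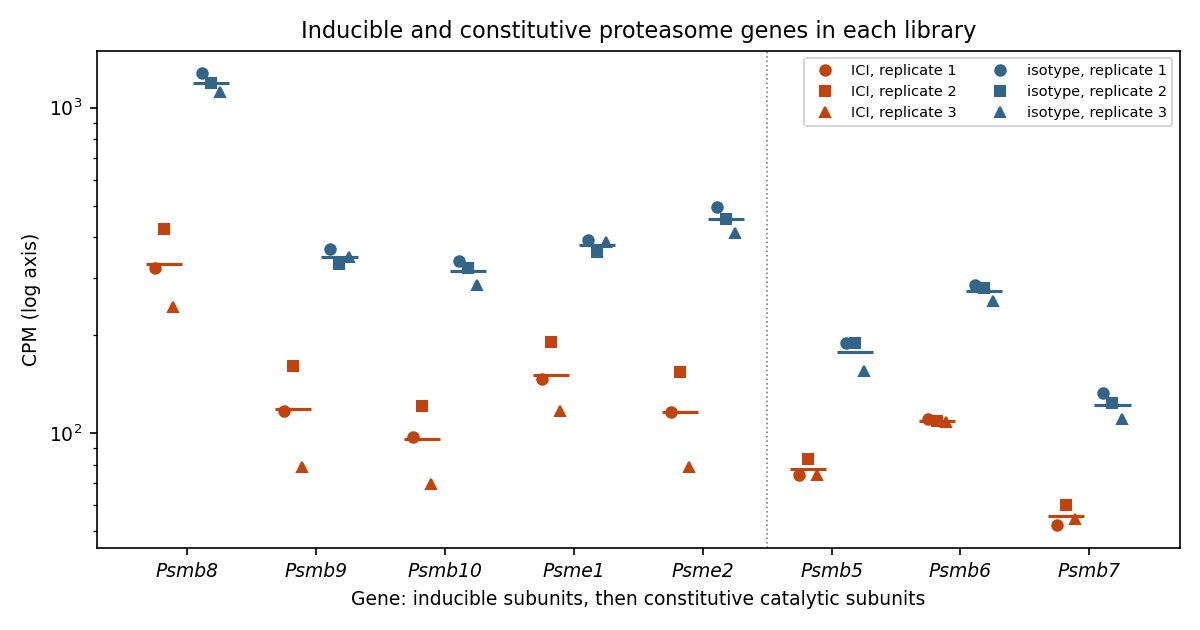
CPM on a log axis (y) of the 5 inducible genes and, right of the dotted line, the 3 constitutive catalytic genes (x axis) in each library; marks are replicates, bars are group means, with ICI libraries left of those of the isotype group. The groups separate for all 8 genes, and in the inducible genes the ICI libraries spread more, with replicate 2 on top and replicate 3 at the bottom.

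The constitutive catalytic genes fell as well. Psmb6 (ENSMUSG00000018286), whose site cleaves after acidic residues, was at 111, 109 and 108 CPM in ICI libraries against 284, 280 and 254 CPM in isotype libraries (edgeR log2 fold change -1.53 ± 0.09 SE, adjusted p = 4.61e-07), the smallest adjusted p of any member. Psmb5 (ENSMUSG00000022193), the chymotrypsin-like subunit and main target of bortezomib, was at 74.3, 83.5 and 74.2 CPM against 189, 189 and 155 CPM (edgeR log2 fold change -1.40 ± 0.11 SE, adjusted p = 3.15e-06). Psmb7 (ENSMUSG00000026750), the trypsin-like subunit, was at 52.1, 60.01 and 54.3 CPM against 132, 124 and 111 CPM (edgeR log2 fold change -1.34 ± 0.10 SE, adjusted p = 2.44e-06). All 3 were close within a group and far apart between groups. Psmb7 shares 405 exon bases (11.8%) with Nek6 on the opposite strand, so its reads are uncertain to that extent. Other members share exon bases too, among them Psmb8 with Gm20496 (14.7%), Psmb5 with Mir686 (12.1%) and Psmd13 with Sirt3 (10.1%). Gm20496, Mir686 and Sirt3 held 191, 0 and 1425 counts over all libraries. The 5 inducible genes had a median log2 fold change of -1.91 (range -2.16 to -1.52) and the 3 constitutive ones of -1.40 (range -1.53 to -1.34).

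Within each library the inducible gene was set against its constitutive counterpart as a ratio of counts per kilobase of transcript, which does not depend on library scaling. Psmb8 stood at 2.39, 2.81 and 1.82 times Psmb5 in ICI replicates 1, 2 and 3, against 3.72, 3.47 and 3.995 times in isotype libraries, and the groups did not overlap. Psmb10 stood at 1.66, 1.78 and 1.13 times Psmb7 against 2.25, 2.30 and 2.28 times, again without overlap and with very like isotype values. Psmb9 stood at 0.623, 0.870 and 0.430 times Psmb6 against 0.761, 0.697 and 0.804 times, and here ICI replicate 2 exceeded every isotype library. The mean log2 ratio differed (ICI minus isotype) by -0.69 for Psmb8 to Psmb5, by -0.61 for Psmb10 to Psmb7 and by -0.29 for Psmb9 to Psmb6. The exact two-sided permutation p was 0.1, 0.1 and 0.5 for the 3 pairs (adjusted over them 0.15, 0.15 and 0.5), where 0.1 is the smallest that 3 against 3 libraries allow, so no pair could pass 0.05. In the libraries numbered 1 and 2 alone, a check added after the data were seen, the Psmb9 to Psmb6 difference was 0.02, of the opposite sign, and those of the other 2 pairs were -0.47 and -0.41.

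**Figure D3:**
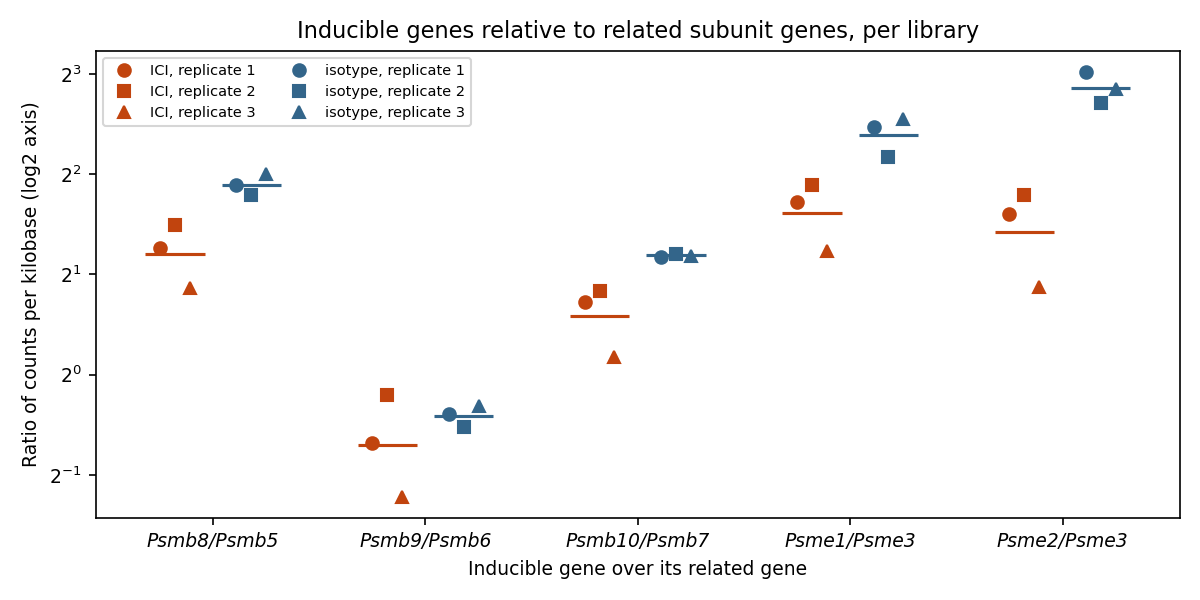
Ratio of counts per kilobase (y, log2 axis) of each inducible gene to a related gene (x axis) in each library, with ICI libraries left of those of the isotype group; marks are replicates and bars are group means of the log2 ratio. The groups separate for 4 of the 5 ratios and overlap for Psmb9 to Psmb6, and ICI replicate 3 is the lowest in every ratio.

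Of the summed counts per kilobase of the 6 catalytic genes, Psmb8, Psmb9 and Psmb10 made up 57.4%, 62.7% and 49.7% in ICI replicates 1, 2 and 3, and 65.8%, 64.6% and 66.4% in isotype libraries. The isotype libraries lay close together and above every ICI library, and the share averaged 56.6% ± 6.55 against 65.6% ± 0.932 (SD, n = 3 each). The difference of -9.05 percentage points was -5.59 without ICI replicate 3, -12.1 without ICI replicate 2 and -5.18 in the libraries numbered 1 and 2. The per-kilobase level was highest for Psmb8 among the 6, at 203 CPM per kilobase in ICI libraries and 733 in isotype libraries. Psmb6 was next in both groups, at 137 and 342 CPM per kilobase, and Psmb7 lowest, at 47.8 and 105. As Psmb9 had 87.7 and 257 and Psmb5 86.0 and 198 CPM per kilobase, the order of these 2 in ICI libraries is within their spread. For the activators, Psme2 stood at 3.03, 3.46 and 1.83 times Psme3 against 8.10, 6.55 and 7.22 times, and Psme1 at 3.30, 3.70 and 2.36 times against 5.54, 4.49 and 5.84 times. With the length trend removed, the edgeR log2 fold change of Psme1 minus that of Psme3 was -0.33 (main fit -0.74). For Psme2 minus Psme3 it was -0.90 (main fit -1.38). The same setting widened the differences of the catalytic pairs. They were -0.94 (main fit -0.65) for Psmb8 minus Psmb5 and -0.63 (main fit -0.57) for Psmb10 minus Psmb7. For Psmb9 minus Psmb6 the difference was -0.48 (main fit -0.22).

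The 5 inducible genes also varied more between the ICI libraries than other members. Their SD of log2 CPM was 0.350 to 0.515 in ICI libraries and 0.065 to 0.131 in isotype libraries. For the other 36 tested members apart from Psma8, a low gene, it was 0.008 to 0.194 and 0.034 to 0.168. In all 5 inducible genes ICI replicate 2 was highest and replicate 3 lowest, an order that 20 of the other 37 tested members shared. The same order held for Tap1, a subunit of the peptide transporter of the class I pathway (263, 423 and 165 CPM in ICI libraries, against 872, 921 and 823 CPM in isotype libraries). Classical monocyte genes summed to 889, 1041 and 780 CPM and B cell genes to 196, 253 and 671 CPM in ICI replicates 1, 2 and 3. Replicate 3 was also the ICI library with many Xist counts (2786) and few Y-linked counts (6). The part of any of these in the order was not tested. This spread was described after the values were seen, from 3 libraries a group.

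**Figure D4:**
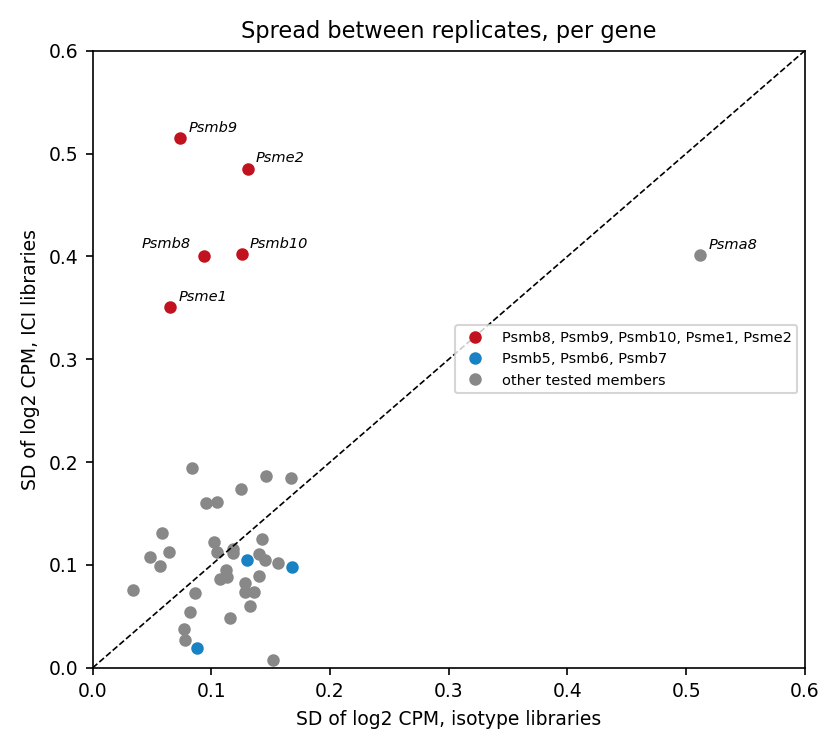
SD of log2 CPM over the 3 ICI libraries (y axis) against that over the 3 of the isotype group (x axis) for each tested member; the dashed line marks equal spread. The 5 inducible genes lie well above the line at 0.350 to 0.515, and the low gene Psma8 lies apart from the rest.

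In the rest of the barrel, all 7 commonly expressed alpha genes, Psma1 to Psma7, fell, with a median log2 fold change of -1.43. Psma5 (ENSMUSG00000068749), which is not exchanged in the immunoproteasome, fell to 70.9, 85.5 and 66.9 CPM in ICI libraries against 253, 245 and 204 CPM in isotype libraries (edgeR log2 fold change -1.86 ± 0.13 SE, adjusted p = 1.95e-06), with an estimate below that of Psmb9, a difference that was not tested. Psma4 had a log2 fold change of -1.63 (SE 0.12), Psma7 and Psma2 of -1.53 (SE 0.11) and -1.43 (SE 0.10), and Psma1 the smallest fall of the 7, -1.24 (SE 0.10; edgeR adjusted p from 1.45e-06 to 8.49e-06 over the 7 genes). Psma8, an alpha subunit of testis proteasomes, had 24 to 44 counts in ICI libraries and 23 to 42 in isotype libraries. It averaged 1.38 ± 0.409 CPM against 1.22 ± 0.384 CPM (SD, n = 3 each). It was the only tested member not called (edgeR log2 fold change 0.01 ± 0.33 SE, adjusted p = 0.980), and a difference was not detectable at this depth. The non-catalytic inner-ring genes also fell: Psmb3 to 72.2, 73.3 and 62.6 CPM against 207, 195 and 171 CPM (edgeR log2 fold change -1.66 ± 0.11 SE, adjusted p = 1.31e-06). Psmb2 had an edgeR log2 fold change of -1.59 ± 0.10 SE (adjusted p = 5.86e-07). Psmb4 and Psmb1 had log2 fold changes of -1.37 and -1.30 (SE 0.10 each). Psmb11, the catalytic subunit of the thymus, had 1, 2 and 6 counts in ICI libraries and 0 in each of the isotype group, and did not pass the filter.

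In the 19S cap, all 6 ATPase genes were called lower, with a median log2 fold change of -1.06. Psmc4 had the lowest value among them (-1.29, SE 0.10, edgeR adjusted p = 2.61e-06), Psmc1 the smallest adjusted p (-1.09, SE 0.08, edgeR adjusted p = 2.05e-06), and Psmc6 the highest value (-0.67, SE 0.11, edgeR adjusted p = 0.000452), at 58.2, 74.0 and 64.3 CPM against 96.7, 92.4 and 81.8 CPM. The 14 Psmd genes were called lower with a median of -1.03. Psmd13 fell to 68.6, 72.9 and 67.2 CPM in ICI libraries against 160, 170 and 142 CPM in isotype libraries (edgeR log2 fold change -1.38 ± 0.10 SE, adjusted p = 1.74e-06). Psmd8 had a log2 fold change of -1.31 (SE 0.09), and Psmd14, the deubiquitinase that strips ubiquitin at the cap, of -1.29 (SE 0.10). The ubiquitin receptors Psmd4 and Psmd2 had log2 fold changes of -1.19 (SE 0.09) and -1.23 (SE 0.09). The median log2 fold change of barrel genes minus that of cap genes was -0.44, a difference that was not tested. It was -0.20 after a trend with transcript length was removed. The barrel transcripts are shorter (median 1220 bases for Psma and 1172 for Psmb genes, 1614 for Psmc and 1947 for Psmd genes) and log2 fold change was higher for longer transcripts across all genes (Spearman 0.228 over 14232 genes, which are not independent).

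Psmd5 and Psme4 stood apart from the other called members. Psmd5, a chaperone of cap assembly and not a subunit of the finished cap, was at 42.2, 40.7 and 41.4 CPM in ICI libraries against 43.3, 43.6 and 39.6 CPM in isotype libraries, and the groups overlapped. Its call (edgeR log2 fold change -0.23 ± 0.09 SE, adjusted p = 0.0427) was lost under 12 of 17 other settings, among them library totals alone (adjusted p = 0.825; range over all settings 0.00319 to 0.825). Psme4, which encodes the large activator PA200, was at 72.4, 82.1 and 71.2 CPM against 82.8, 82.9 and 73.1 CPM, also overlapping (edgeR log2 fold change -0.28 ± 0.10 SE, adjusted p = 0.0276), and lost its call under 7 of 17 (0.457 with library totals alone; range 0.00106 to 0.457). The other cap chaperones of the Psmd series, Psmd9 and Psmd10, fell to 17.8 ± 1.35 and 24.6 ± 0.128 CPM in ICI libraries against 30.5 ± 1.03 and 41.9 ± 4.29 CPM in isotype libraries (SD, n = 3 each; log2 fold changes -0.98 and -0.97, edgeR adjusted p = 2.03e-05 and 2.54e-05). About 25.5% of the exon bases of Psmd9 overlap Gm26745 on the opposite strand, a gene without an entry in the deposited counts.

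Genes that build or serve the proteasome outside the name rule were read from lists chosen with earlier results of these data known; their counts stand beside 33.9% of all tested genes called lower and 35.0% higher. All 5 measured genes of barrel assembly were called lower, with a median log2 fold change of -1.10. Pomp, the maturation factor of the barrel, fell to 86.6, 95.8 and 74.0 CPM in ICI libraries against 251, 226 and 234 CPM in isotype libraries (edgeR log2 fold change -1.67 ± 0.11 SE, adjusted p = 1.31e-06), and the chaperones Psmg4 and Psmg1 had log2 fold changes of -1.32 and -0.87 (-0.65 and -0.46 with the length trend removed). The call of Psmg2 (edgeR adjusted p = 0.00473) was lost with library totals alone (0.069) and with the length trend removed (0.703). Of 10 other partners of the proteasome 7 were called lower, 1 higher and 2 not called (median -0.62), with the cap subunits Sem1 and Adrm1 at -1.42 and -1.05. Zfand5, a proteasome-binding zinc finger protein, went the other way, at 436, 471 and 477 CPM against 151, 178 and 171 CPM (edgeR log2 fold change 1.26 ± 0.09 SE, adjusted p = 1.48e-06).

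Ubb, which encodes ubiquitin repeats, was called higher. The Ubb log2 fold change was 0.27 (edgeR adjusted p = 0.0289), a call lost without ICI replicate 1 (0.0823), isotype replicate 1 (0.0982) or isotype replicate 2 (0.125). Rps27a, which encodes ubiquitin fused to a ribosomal protein, was lower (edgeR log2 fold change -1.25 ± 0.09 SE, adjusted p = 1.38e-06). Over the 12 ubiquitin, activating-enzyme and shuttle genes 6 were called lower, 5 higher and 1 not called (median -0.40), where 33.9% of all genes were called lower and 35.0% higher. The 5 higher became 3 without isotype replicate 2. Among 8 regulators 4 were called lower, 1 higher and 3 not called (median -0.24), where 68.9% of all genes were called. The 4 lower became 1 without isotype replicate 1 or 2 and 2 without ICI replicate 1 or 3. Nlrc5, the activator of class I genes, had a log2 fold change of -0.99 (edgeR adjusted p = 0.0220; up to 0.0728 under other settings). Ngly1, the enzyme that processes NFE2L1, had one of 0.57 (SE 0.08, edgeR adjusted p = 0.000123). Nfe2l1 itself was at 133, 125 and 141 CPM against 132, 137 and 120 CPM, overlapping and not called (edgeR adjusted p = 0.122). All 5 genes of class I peptide supply fell, with a median log2 fold change of -1.20. Tap2 had -1.60, Tapbp -1.20 and Erap1 -1.02 on the log2 scale.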

How the data were processed

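The authors deposited raw counts per Ensembl gene, not normalized, for 6 libraries. Build GRCm39, Salmon 1.10.1 and STAR 2.7.10a appear in the submitters' processing notes without roles; the labels name no annotation release or strand setting of the counting. Symbols came from a name table covering 52029 identifiers (91.3%).

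The main test was the edgeR 4.0.16 quasi-likelihood F test (R 4.3.3; TMM factors, robust fit, filterByExpr minimum count 10, 14575 genes), tested on simulated data. Standard errors came from fold change and F statistic. CPM used library totals. Lengths were those of principal transcripts in GENCODE M21 (GRCm38), averaged where a gene had several. A gene without one took the length of its longest transcript. No coordinates were converted. Ratios were compared with exact permutation tests. Alternatives were DESeq2 1.42.0, limma 3.58.1 voom, other scalings and filters, a length correction (lowess span 0.3), a replicate block and each library left out; the legacy fit and the libraries numbered 1 and 2 alone were chosen after seeing the data. Members, lists and the rule for named genes (the 8 catalytic and activator genes, per class the 3 smallest p and the extremes, uncalled or low members, 3 per list) were chosen with earlier results of these data known. A few genes that this rule names are not reported here. Replicates differed beyond sampling noise (chi-square per degree of freedom 12.6 to 33.8).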

Additional observations from a re-analysis of the deposited data

How the results depend on the processing

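Of 17 other settings, each kept all 5 inducible and all 3 constitutive catalytic genes called lower, and 39 to 41 of the 42 tested members called lower. Psmd5, Psme4 and no other member lost a call. Without a filter, Psmb11 (9 counts against 0) was called higher, the 1 member so called. Other settings moved sizes: upper-quartile factors and library totals alone put the all-gene median at 0.21 and 0.23, the calls at 3849 lower and 6155 higher and at 3724 and 6255 (main 4938 and 5102), and the class medians to -1.23 and -1.21 (Psma), -1.38 and -1.36 (Psmb), -0.88 and -0.86 (Psmc) and -0.85 and -0.83 (Psmd), with -0.95 for Psme under library totals. With the length trend removed, the medians were -1.16 (Psma), -1.10 (Psmb), -0.86 (Psmc) and -0.92 (Psmd), and with the strict filter (50 counts in 3 libraries) -0.97 (Psmc) and -0.95 (Psmd). Leaving out 1 library gave -1.12 to -0.95 for Psmd. The summed CPM of the members differed by -5204 (ICI minus isotype), or -6152 when TMM-scaled. The proteasome partners called higher were 3 with upper-quartile factors, 3 with library totals and 2 with the length trend removed. The ubiquitin genes called higher were 3 to 4 with 1 library left out. The regulators called lower were 2 with upper-quartile factors, library totals, no filter or the strict filter, and 1 to 5 with 1 library left out. The Psmb9 to Psmb6 log2 ratio difference was 0.015 in the libraries numbered 1 and 2, the reverse of -0.29. Leaving out 1 library, the ratio differences ran from -0.84 to -0.52 for Psmb8 to Psmb5, -0.73 to -0.41 for Psmb10 to Psmb7 and -0.54 to -0.03 for Psmb9 to Psmb6. The cause of these shifts was not tested. Same-numbered libraries were not shown to be paired (correlations of their deviations from group means 0.0345, 0.0619 and 0.128, and not every library correlated best with its own number); with the replicate block 41 members were called lower. Depth limits Psma8, at 23 to 44 counts a library, and Psmb11, at 0 to 6.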
